A study of Homo sapiens with 2 samples.

Results

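The fused S100 genes encode filaggrin and its relatives: FLG, FLG2, HRNR, RPTN, TCHH, TCHHL1 and CRNN. They were picked by symbol, as the non-control probes whose gene name in the array files was 1 of these, which gave 7 of 43317 gene names and 11 of 58201 probes. Their RNA was measured in Ca9-22, an established oral squamous cell carcinoma (OSCC) cell line, after infection with a lentivirus carrying the long noncoding RNA DLEU1 or with the matching control vector. The DLEU1 vector held a full-length cDNA cloned from another OSCC line, KON, in pLenti6/V5-DEST, the control was the empty vector, and both cultures were kept under 6 mg/ml of blasticidin, as the label writes it, for 2 weeks. From each culture, 100 ng of total RNA was labelled (Cy3) and read on its own 1-colour Agilent array. With 1 array per vector there are no replicates and no test was possible, and the small number of arrays sets the limit to what each value can show. Cells carrying the empty vector are called control cells here, and those carrying DLEU1 are called DLEU1 cells. The study set out to learn which genes ectopic DLEU1 affects in OSCC cells, and the comparison here is DLEU1 vector against control vector.

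Each of these genes codes for a protein that joins a calcium-binding S100 domain at its start to a longer part. In filaggrin and most of its relatives that part is a run of repeats. The genes stand side by side in the epidermal differentiation complex, a stretch of chromosome 1 whose genes are switched on as squamous epithelium matures, and their products bind keratin filaments or are built into the cornified envelope. Filaggrin is known above all from the granular layer of skin, trichohyalin from the inner root sheath of hair and from tongue papillae, and cornulin from the lining of mouth and oesophagus.

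The promoters of the family are shown because the members lie next to each other and 5 of 7 were higher in DLEU1 cells. A total of 7 of 7 matched a promoter in RefSeq (GRCh38.p14, minus strand), and the 120 bases before each start are printed 5′ to 3′, with TATAAA and TGANTCA, the core of the AP-1 site, in capitals.
FLG (chr1:152325240-152325359): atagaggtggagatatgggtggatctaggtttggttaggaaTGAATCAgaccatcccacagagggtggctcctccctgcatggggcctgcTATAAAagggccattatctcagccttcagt
FLG2 (chr1:152360007-152360126): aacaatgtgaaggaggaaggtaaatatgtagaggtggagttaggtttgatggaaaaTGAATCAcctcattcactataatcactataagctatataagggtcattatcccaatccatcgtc
HRNR (chr1:152224194-152224313): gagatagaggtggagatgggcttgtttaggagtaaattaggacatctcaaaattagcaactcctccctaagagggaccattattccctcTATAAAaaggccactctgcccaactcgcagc
RPTN (chr1:152159229-152159348): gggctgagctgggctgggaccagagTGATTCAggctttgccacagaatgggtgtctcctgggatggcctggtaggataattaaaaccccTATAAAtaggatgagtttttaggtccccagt
TCHH (chr1:152115445-152115564): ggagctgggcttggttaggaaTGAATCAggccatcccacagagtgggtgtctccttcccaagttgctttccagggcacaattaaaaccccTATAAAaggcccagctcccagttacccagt
TCHHL1 (chr1:152089065-152089184): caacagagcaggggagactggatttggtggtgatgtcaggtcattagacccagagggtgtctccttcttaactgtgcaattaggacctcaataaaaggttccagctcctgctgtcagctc
CRNN (chr1:152414264-152414383): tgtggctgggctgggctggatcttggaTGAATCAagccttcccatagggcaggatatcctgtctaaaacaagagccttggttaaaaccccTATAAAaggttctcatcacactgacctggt
Searched on both strands from 250 bases before to 50 after the start, TATAAA was found in 5 of 7 promoters, all but FLG2 and TCHHL1, against 11.5% of 35116 promoters of the same length. Its first base lay at -30 in FLG, TCHH and CRNN and at -31 in HRNR and RPTN. TGANTCA was found in 6 of 7, all but HRNR, against 7.71% of all promoters. In TCHHL1 the match lay at -215, before the stretch shown. The letters AACCNGNTT, bound by GRHL factors, were in RPTN only (2.11% of all promoters). GAAANNGAA, the core of the interferon-stimulated response element, was in FLG2 only (8.11% of all promoters), at -69, where it overlapped the TGANTCA match at -64. FLG and TCHH shared a run of 19 bases, TTGGTTAGGAATGAATCAG, which no other promoter held, and TCHH and CRNN shared another of 19, TTAAAACCCCTATAAAAGG, likewise in no other. TCHH, whose probes were not detected on either array, carried both motifs, with TGANTCA at -99, where FLG had it at -79 and CRNN at -93. Such matches are letters in a window and do not show that a factor binds there. The motifs were chosen after these promoters had been read, and some of the promoters share runs that contain them. Their counts beside the shares of all promoters thus describe the 7 and are no test.

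Levels are given as processed signal with the software's error for the spot, and as log2 level, the log2 signal minus the 75th percentile of the array (7.92 for control cells and 7.88 for DLEU1 cells). A probe was detected where the software marked it well above background. The lowest detected signal was 14.2 in control cells and 14.3 in DLEU1 cells. For a probe detected in DLEU1 cells only, the fold is written as "at least", against the higher of the lowest detected level and the probe's own level on the control vector array. Of 7 genes, 5 were at least 2-fold higher in DLEU1 cells and 0 were lower. Of the 22543 gene names detected on 1 or both arrays, 10.2% were higher and 10.0% were lower. The 7 include members detected on neither array, whereas the 22543 leave such names out. Out of all 43317 gene names, 2299 were higher and 2264 were lower. FLG was detected on both arrays, FLG2, RPTN, TCHHL1 and CRNN in DLEU1 cells only, and HRNR and TCHH on neither. Over all gene names, 2.86% were detected in DLEU1 cells only and 48.0% on neither. A gene seen in DLEU1 cells only could not be other than higher there, so the count of 5 describes the members and is no test. Since whole cultures were measured, more cells making a transcript and more transcript per cell cannot be told apart.

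**Figure D1:**
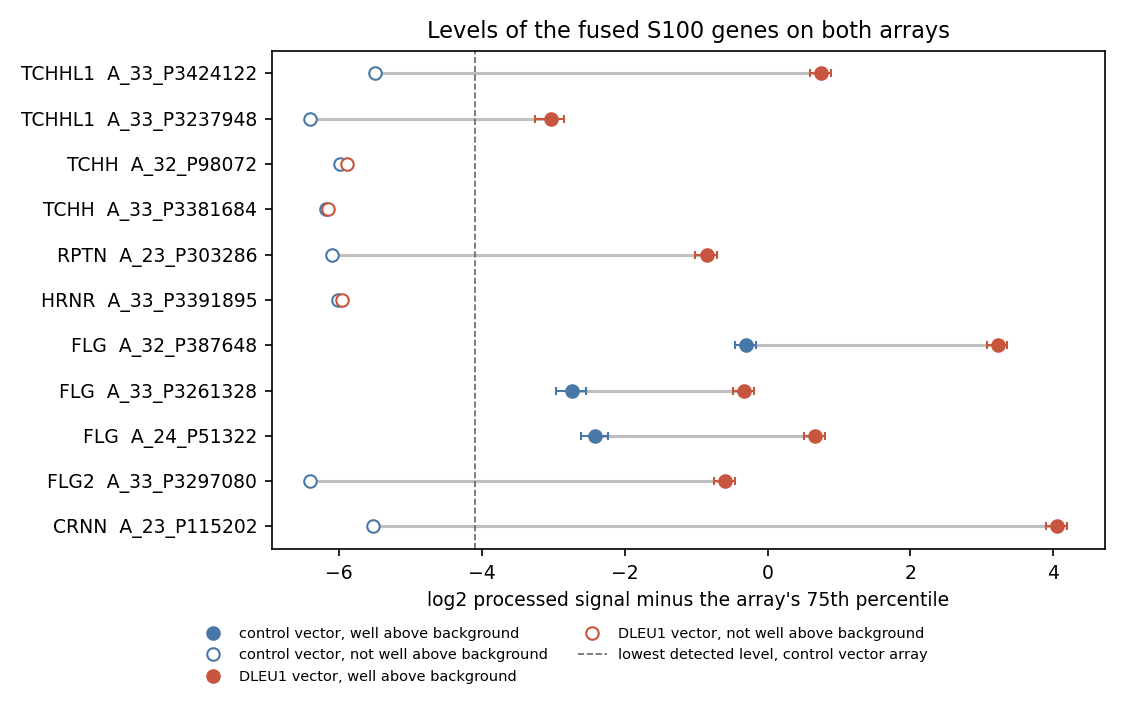
Log2 level (processed signal minus the 75th percentile of the array) of the 11 probes of the fused S100 genes in control cells (blue) and DLEU1 cells (red), 1 spot each, filled where well above background, with bars for the software error of detected spots. The 3 FLG probes are detected on both arrays and shift right, 5 probes are detected in DLEU1 cells only, and the TCHH and HRNR probes stay left of the dashed line, the lowest detected level of the control vector array.

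FLG encodes profilaggrin, which is cut into filaggrin units that bundle keratin and are later broken down to the natural moisturizing factor of the cornified layer. Its probe nearest the end of the transcript, A_32_P387648 (hg19, chr1:152274859-152274918, minus strand), had a signal of 196 ± 19.9 in control cells and 2196 ± 220 in DLEU1 cells (± software error, 1 spot each). Its log2 level went from -0.30 to 3.22, a difference of 3.52 ± 0.21 (software error) or 11.5-fold. FLG RNA was thus measurable in control cells too, and FLG was the single member with a measured difference rather than a bound.

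A pair of further FLG probes lay upstream of it. A_33_P3261328 (chr1:152276446-152276505) had 36.3 ± 5.27 in control cells and 187 ± 19.1 in DLEU1 cells, a log2 difference of 2.40 ± 0.26 or 5.29-fold. A_24_P51322 (chr1:152279465-152279523) had 45.6 ± 5.80 and 374 ± 37.6, a log2 difference of 3.07 ± 0.23 or 8.42-fold. All 3 FLG probes were higher in DLEU1 cells, and their differences ran from 2.40 to 3.52 with an SD of 0.56 between probes. Over 4674 genes the SD between probes of 1 gene was 0.47 pooled and 0.23 at the median, so the FLG probes differed more among themselves than those of a typical gene. For a repeated spot of 1 probe the SD was 0.0800, but it was not matched for brightness. The software errors of the 2 dimmer FLG probes' differences were 0.26 and 0.23. The probes read 1 RNA on each array and are not replicates of the vector.

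The 2 upstream probes are shown because filaggrin's repeats are near copies of one another, so that a probe placed in a repeat can meet more than 1 place in the transcript. In capitals is the run of 17 bases that they share, which no other probe on the array holds.
A_24_P51322: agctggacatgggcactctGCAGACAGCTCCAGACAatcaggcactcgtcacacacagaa
A_33_P3261328: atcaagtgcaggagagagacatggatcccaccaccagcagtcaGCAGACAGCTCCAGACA
The files' positions bear on the same point. A_33_P3261328 lay 1587 bases before the 3′ probe both along the transcript and along the genome, whereas A_24_P51322 lay 10443 bases before it by its place in the transcript but 4605 by its genome position, a disagreement of 5838 bases. The place that A_24_P51322 reads within FLG is therefore uncertain, while the spacing of the other 2 probes is the same on both scales.

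FLG2 encodes filaggrin-2, which has both filaggrin-like and hornerin-like repeats and is likewise laid down in the upper epidermis. Its probe A_33_P3297080 (chr1:152321227-152321286) had 2.87 ± 2.88 in control cells, a signal no larger than its error, and 157 ± 15.9 in DLEU1 cells. The bound was a log2 difference of 3.50, at least 11.3-fold. HRNR encodes hornerin, a repeat protein of the cornified envelope whose gene lies between those of RPTN and FLG. Its single probe A_33_P3391895 (chr1:152184589-152184648) had 3.77 and 3.81 and was not well above background on either array, so it has no fold. Of the 3 genes whose products are most like filaggrin, FLG and FLG2 were higher and HRNR could not be measured.

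RPTN encodes repetin, an envelope precursor found in scattered epidermal cells and in tongue papillae. The signal of A_23_P303286 (chr1:152126790-152126849) was 3.55 ± 3.56 in control cells and 131 ± 13.5 in DLEU1 cells, which bounds the log2 difference at 3.24, at least 9.44-fold. RPTN therefore passed from the background level to a clear signal.

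CRNN encodes cornulin, a late marker of oral and oesophageal epithelium. Its probe A_23_P115202 (chr1:152381733-152381792) had 5.29 ± 3.61 in control cells and 3912 ± 391 in DLEU1 cells. The log2 level went from -5.52 to 4.05, and the bound was 8.14, at least 283-fold. Of the 5 members that were higher, CRNN had the largest bound. Its spot on the control vector array was marked positive and significant by the software though not well above background, and read as a plain difference it would be 9.57 on the log2 scale.

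Trichohyalin, the product of TCHH, hardens the inner root sheath and is cross-linked to keratin there. Neither TCHH probe was detected, A_32_P98072 (chr1:152078866-152078925) at 3.84 and 3.98 and A_33_P3381684 (chr1:152080183-152080242) at 3.33 and 3.31. TCHHL1, trichohyalin-like 1, is its neighbour and less well described. The probe A_33_P3424122 (chr1:152056827-152056886) near the end of its transcript had 5.37 ± 3.34 in control cells and 395 ± 39.7 in DLEU1 cells, a bound of 4.84 or at least 28.6-fold. As with CRNN, its control spot was marked positive and significant though not well above background, and its plain difference would be 6.24. The other TCHHL1 probe, A_33_P3237948 (chr1:152058139-152058198), had 2.86 ± 2.87 and 28.8 ± 4.04, a bound of 1.06 or at least 2.08-fold. Both TCHHL1 probes were detected in DLEU1 cells only, the dimmer one just past 2-fold by its bound. TCHHL1 was thus higher, and TCHH had no measurable level on either array.

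**Figure D2:**
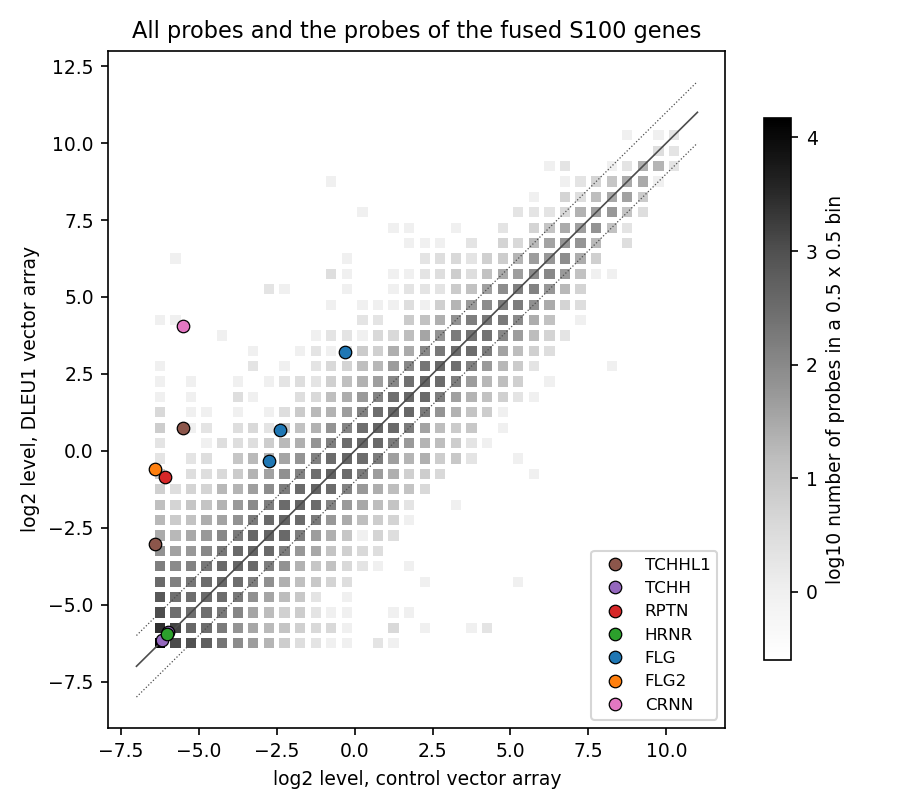
Log2 level of every non-control probe on the control vector array (horizontal) against the DLEU1 vector array (vertical), with grey squares for the log10 number of probes in bins of 0.5 by 0.5 and coloured points for the probes of the fused S100 genes. The solid line marks equal levels and the dotted lines 2-fold; the probes of FLG, FLG2, RPTN, TCHHL1 and CRNN lie above the upper dotted line, while those of HRNR and TCHH lie among the dark probes at the lower left.

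The bounds of FLG2, RPTN, TCHHL1 and CRNN became smaller when a constant was added to the signals, which shrinks the fold of a dim probe by construction. They also became smaller, though by less, with another background correction and no constant. With normexp and an offset of 50 in place of the software's correction they were 1.73 for FLG2, 1.36 for RPTN, 2.63 for TCHHL1 and 5.66 for CRNN on the log2 scale, each still above 1, and FLG was 3.14. With normexp and no offset they were 2.996 for FLG2, 2.51 for RPTN, 4.05 for TCHHL1 and 7.23 for CRNN. The bounds given above were 3.50, 3.24, 4.84 and 8.14 in the same order. Each "at least" therefore holds only for the software's background correction with the scaling and probe choice used here. Under spike-in scaling, with that correction kept, the bounds were 3.15, 2.88, 4.48 and 7.79 in the same order. As the mean over its probes, TCHHL1 was 2.95. With 50 added to the software's processed signal the bounds were 1.72, 1.52, 2.82 and 5.98 in the same order, in each case below the value with normexp and no offset. Where a signal of at least 100 was asked for on both arrays, FLG alone was left to count.

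**Figure D3:**
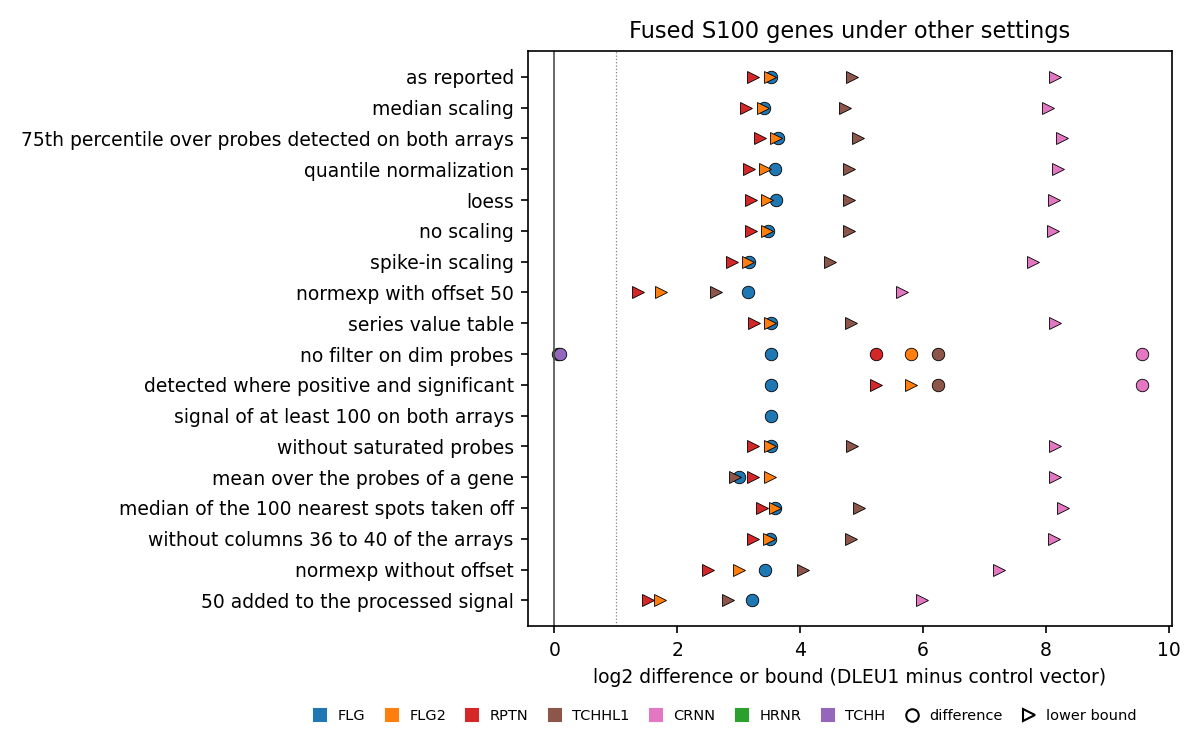
Log2 difference (circles) or lower bound (triangles) of each fused S100 gene, DLEU1 vector minus control vector, under each processing setting, with a dotted line at 2-fold. Without a filter on dim probes HRNR (0.05) and TCHH (0.09) appear near 0. Their signals were no larger than the software errors on either array, so these 2 points measure no difference. The lowest bounds are those of the settings that add 50 to the signals (1.36 for RPTN with normexp and an offset of 50), against 2.51 for RPTN with normexp and no offset.

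DLEU1 itself rose by 2.74 on the log2 scale (6.67-fold) at A_23_P151337, which fits the labels of the arrays, and differed by 0.54 and 0.85, below 2-fold, at probes of its other transcript. Of the markers listed as squamous epithelial, 8 of 8 were detected on both arrays, KRT5, KRT14 and TP63 among them. At least 2-fold higher in DLEU1 cells were 5 of these 8 (median 1.57), where 10.2% of all detected gene names were higher. EPCAM alone lay below 0, at -0.78. The summed signal of 6 fibroblast markers was 375 in control cells and 5292 in DLEU1 cells, nearly all of it COL1A1 (337 and 5217). COL1A2, COL3A1 and DCN were not detected, LUM had a bound of 1.30, and PDGFRB, detected on both arrays, was lower at -0.33. The sum of 5 endothelial markers went from 115 to 655, of which VWF made 48.1 and 609. PECAM1, KDR and TEK were not detected, and CDH5, detected on both arrays, was lower at -0.59. Sums of 4 leukocyte markers (299 and 264, with CD3E not detected) and 5 melanocyte markers (443 and 417, with MLANA, TYR and TYRP1 not detected) were lower in DLEU1 cells. The part of COL1A1 and VWF in the results above was not tested. On the DLEU1 vector array, columns 36 to 40 were dim: 22.9% of probes lit in control cells were 2-fold lower there and 12.1% elsewhere. Of the 11 family probes 1 lay in these columns, the TCHH probe A_33_P3381684.

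The genes that act on filaggrin were mixed. Of 15 genes for its processing and breakdown, 5 were at least 2-fold higher, 1 was lower and 4 were detected on neither array. Over all gene names detected on 1 or both arrays, 10.2% were higher and 10.0% were lower. In the list, 10 genes were detected on both arrays with a median log2 difference of 0.37, and all genes had a median of -0.07. ASPRV1, the protease that cuts the linkers between filaggrin units, was the highest at 5.99. SPINK5, an inhibitor of the kallikreins, was detected in DLEU1 cells only, with a bound of 4.71, and KLK5, 1 of its targets, rose by 3.03. Of the enzymes that turn arginine to citrulline in filaggrin, PADI3 was higher by 1.13 and PADI1 differed by 0.36, below 2-fold, and PADI2 was not detected. On the breakdown side, BLMH (bleomycin hydrolase) had -0.17, GGCT was the lowest of the list at -1.40, and CASP14 and HAL, which makes urocanic acid from filaggrin's histidine, were not detected. PRSS8, also at least 2-fold higher, rose by 1.13. Of the 10 genes detected on both arrays, 8 thus lay above 0 and 2 below.

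Proteins that filaggrin and its relatives are bound or cross-linked to gave 6 of 12 genes higher and 0 lower, with 2 detected on neither array. The share higher over all detected gene names was 10.2%. The median was 1.20 over the 6 genes of the list detected on both arrays. KRT1, a keratin of the suprabasal epidermis, had a bound of 10.52, and its partner KRT10 differed by 0.53, below 2-fold. The envelope proteins LOR (loricrin, a bound of 5.50) and IVL (involucrin, 5.84) were higher. Among the transglutaminases, TGM1 rose by 2.49, TGM5 had a bound of 1.14, TGM2 was detected in control cells only (at most -0.66), and TGM3, which cross-links trichohyalin, was not detected. KRT2 was not detected either. EVPL was the lowest of those detected on both arrays, at 0.45.

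For trichohyalin's own setting, a list of 12 inner root sheath partners was looked at, which also holds a keratin of the companion layer. In this list 4 were higher and 0 lower (median 1.47 over 6 genes). Of these 12, 4 were detected on neither array, and 10.2% of all detected gene names were higher. KRT75, a keratin of the companion layer, was the highest at 3.11, followed by KRT74 at 2.60 and the transcription factor GATA3 at 2.27. KRT72 had a bound of 1.25 and KRT26 of 0.85. KRT73 was the lowest, at 0.16, with log2 levels of 2.62 and 2.78. KRT25, KRT27, KRT28 and KRT71 were not detected, so some keratins of the sheath were measured and others were not.

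For cornulin's setting, the list of 15 genes of oral and oesophageal mucosa held 10 that were higher and 0 that were lower, with a median of 3.51 over 9 genes. On neither array were 3 of the 15 detected, and 10.2% of all detected gene names were higher. SPRR3, an envelope precursor of this mucosa, was the highest at 9.88, and KRT4 and KRT13, its keratin pair, were at 8.36 and 5.80. CRCT1, a small protein encoded close to CRNN, had a bound of 8.50. RHCG had a bound of 2.33 and TMPRSS11A of 1.35, TMPRSS11E was the lowest at 0.23, and MAL, CRISP3 and MUC21 were not detected. Not every marker of this mucosa was thus higher.

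Of 17 transcription factors of late differentiation, 8 were higher and 0 were lower, with a median of 0.96 over 15 genes. Among all detected gene names 10.2% were higher, and 1 of the 17 factors was detected on neither array. ZNF750 (4.22) and GRHL3 (3.66), both needed for terminal differentiation of keratinocytes, were the highest, POU2F3 had a bound of 1.92, KLF4 was the lowest at -0.19, and NFE2L2 was not detected. By size of difference, the genes of these lists nearest to FLG (3.52) were ECM1 (3.51), GRHL3 (3.66) and KRT75 (3.11), a likeness that rests on 2 arrays and so on 1 difference per gene.

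**Figure D4:**
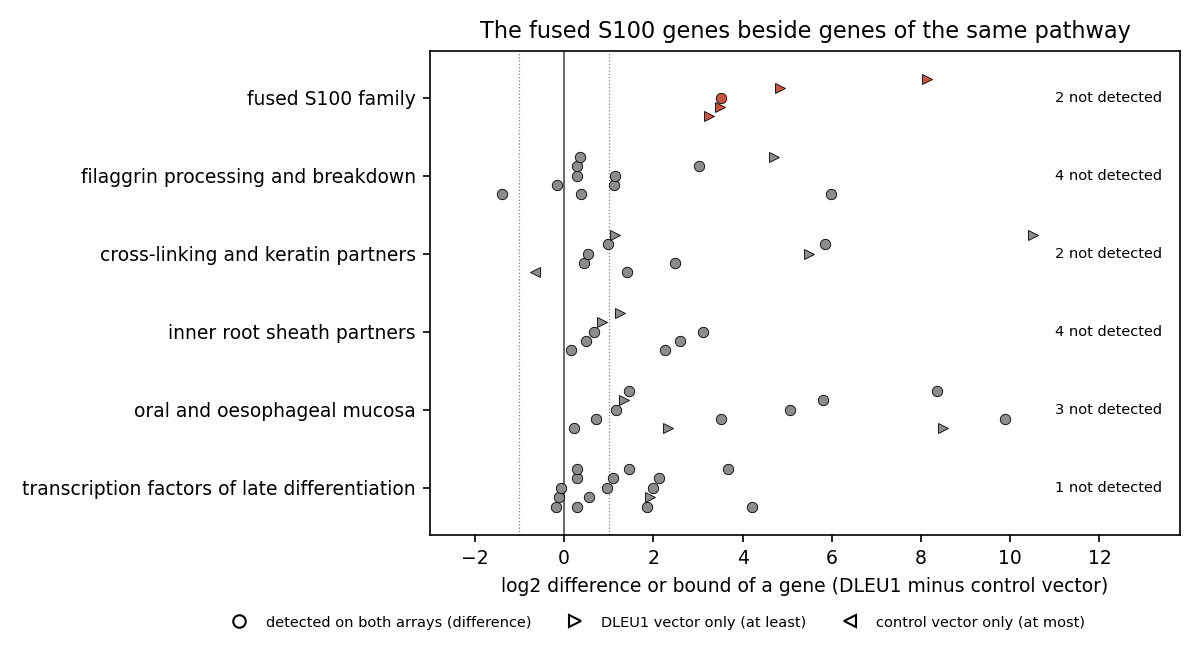
Log2 difference or bound of each gene, DLEU1 vector minus control vector, for the fused S100 genes (red) and 5 lists of related genes (grey), with triangles for genes detected on 1 array only and the number not detected at the right. The 5 detected members sit at 3.24 or more, while the filaggrin processing list runs from -1.40 to 5.99 and the mucosa list from 0.23 to 9.88.

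The family's probes spanned 325 kb of chromosome 1 (hg19). For the counts that follow, the shares over all gene names detected on 1 or both arrays were 10.2% higher and 10.0% lower. Between the family's members lay 6 other gene names, of which 4 were detected, 1 was higher and 0 were lower. That 1 was FLG-AS1, an antisense RNA named after FLG, which differed by 1.84 at A_22_P00009023 (log2 level -1.90 and -0.06) and had a bound of 1.95 at a further probe. Within 500 kb beyond TCHHL1, on the side of the S100A10 and S100A11 genes, 17 of 22 gene names were detected, 2 were higher and 1 was lower, with a median of -0.14. The higher ones were THEM5 (a bound of 3.64) and RIIAD1 (1.18), and the lower one was MRPL9 (-1.22). S100A10 and S100A11, plain S100 genes with no repeat part, each differed by 0.57. Within 500 kb beyond CRNN, on the side of the late cornified envelope (LCE) genes, 24 of 27 names were detected, 14 were higher and 1 was lower, with a median of 2.64. The highest there were CRCT1, given above, and LCE3D (8.07), and the lower one was C1orf68, detected in control cells only (at most -2.12). The family thus lay at the edge between a flank near the array's median and a flank in which most names were higher, as seen in the plot of differences by distance from FLG.

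**Figure D5:**
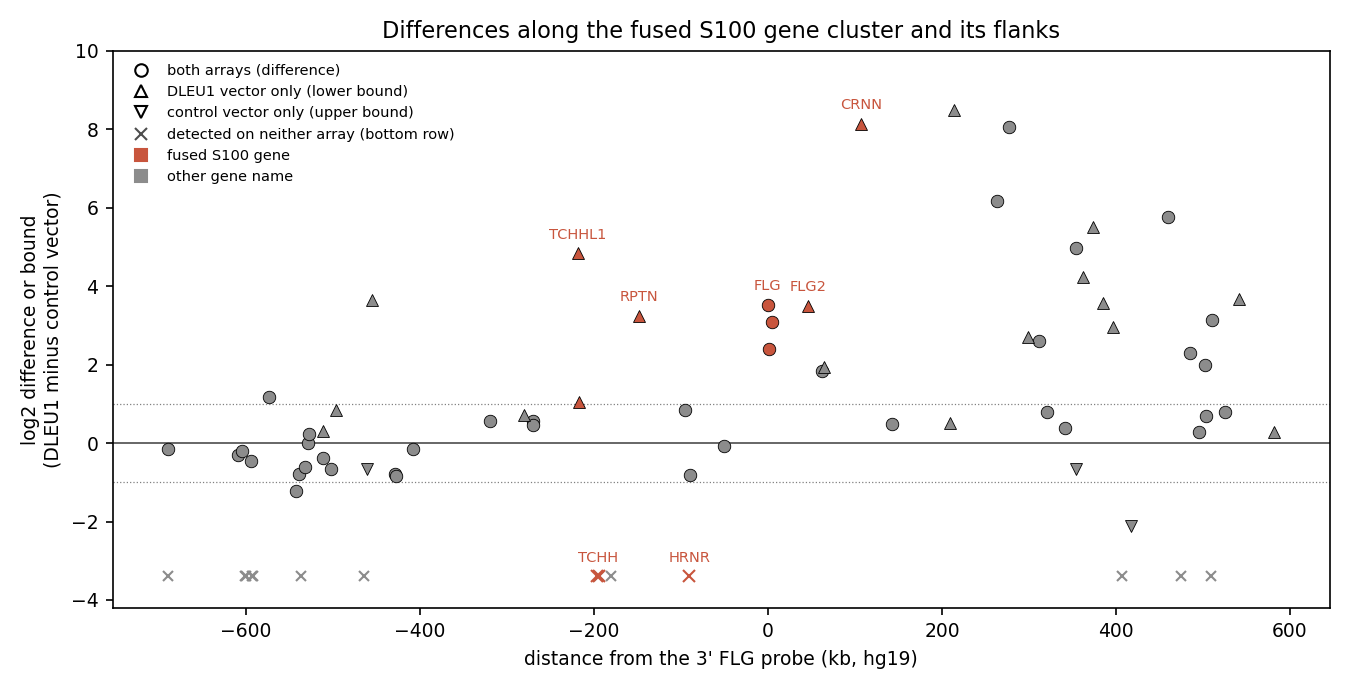
Log2 difference or bound of each probe, DLEU1 vector minus control vector, by distance in kb from the 3′ FLG probe (hg19), with the fused S100 genes in red, other gene names in grey, triangles for probes detected on 1 array only and crosses in a row at the bottom for probes detected on neither. To the left of TCHHL1 the median per gene name is -0.14, and to the right of CRNN it is 2.64.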

How the data were processed

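RNA of Ca9-22 cells was measured on 1 array per vector. The authors' scanner files hold intensity values per spot from Agilent Feature Extraction (10.7 per the labels, 10.7.3.1 per the file headers), already processed by that software. The processed signal was not the spot's mean less its local background. For CRNN in DLEU1 cells it was 3912, beside a mean of 3730 and a local background of 25. The deposited flags for spots well above background, and for positive and significant spots, were used as given. The software's p-value for a spot against its background, deposited with the files, was read but no result uses it. The authors' series values held the same intensity, within 0.497%. The study analysed its arrays in GeneSpring, with no settings stated in the sources used here. From there, log2 of the processed intensity was taken, control spots and outlier spots (84 and 103) were left out, repeated spots were averaged per probe, and each array's 75th percentile over non-control probes was subtracted. No spot was saturated (0). The value of a gene was its brightest probe detected on both arrays, otherwise its largest bound, and genes were called at 2-fold. Each family probe had 1 spot per array, so precision is given by the software's error, by the SD of repeated spots (282 probes) and by probes of 1 gene. None of these holds the variation between cultures.

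The members and the gene lists were chosen with earlier results of these data known, and the motifs after the promoters had been read. The genes named were all members, DLEU1, the highest and lowest gene of each list, those detected on 1 array only, FLG's 3 nearest genes and the neighbouring genes on chromosome 1. Others were named for their known role after their values were seen. Markers CD68 and LYZ were not analysed here. Alternatives were other scalings, background correction (normexp with an offset of 50 or none), 50 added to the signal, filters, thresholds, ways of averaging and positions on the array. The scripts were tested on simulated data and used Python 3.11.15 (pandas 2.3.3, numpy 2.4.6, statsmodels 0.14.6) and, for normexp, limma 3.58.1 in R 4.3.3. Probe positions are on hg19 and promoters on GRCh38.p14, and no position was moved between them.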

Additional observations from a re-analysis of the deposited data

How the results depend on the processing

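A total of 19 alternatives were run, of which normexp with no offset and 50 added to the processed signal were chosen after seeing the data. The count of 5 fused S100 genes higher and 0 lower held in all of them except the filter that kept signals of 100 or more on each array, which left 1 gene, FLG, because a gene must then be bright on both. That filter also gave 2 higher genes among the cross-linking partners, 1 of the inner root sheath list, 4 of the mucosa list and 5 transcription factors, with 1026 higher and 1433 lower gene names in all. Scaling on 8 spike-in probes moved the median of all genes by -0.36 and gave 3 higher genes of filaggrin processing, 1360 higher and 4489 lower names in all. Median scaling moved that median by -0.11, scaling on detected probes only by 0.11 and no filter on dim probes by 0.11. All genes counted 1207 higher and 1453 lower with normexp and an offset of 50, 1302 and 1486 with 50 added to the processed signal, 1899 and 1860 with normexp and no offset, 4232 and 3807 with no filter, and 4219 and 3797 where detection meant positive and significant. At 1.5-fold they counted 4526 and 5005, and at 3-fold 995 and 790, with 3 of filaggrin processing.

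Of 98 such values of the members and DLEU1, 46 stayed within the spot SD of the value reported, 52 moved further and 0 changed sign. A bound for a gene detected in DLEU1 cells only could not change sign. For most values of FLG2, RPTN, TCHHL1 and CRNN the 0 is therefore no test of direction. The difference of FLG fell by 0.52 at most, as the mean over its probes, and reached 3.63 at the highest. The ranges were 1.72 to 5.81 for FLG2, 1.36 to 5.24 for RPTN, 2.63 to 6.24 for TCHHL1 and 5.66 to 9.57 for CRNN. Signal over background limits 4 of the 5 higher members, whose control signals lay below 14.2, the lowest detected signal, and the upper ends took the dim control signals as measured values. No paired analysis was possible because each vector had 1 array, and for the same reason no array could be left out.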
